A study of Mus musculus with 11 samples.

Results

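The 26 genes described here are a set chosen by name for cholesterol synthesis and sterol regulation, out of 55487 genes in the deposited count table. All 26 were found, each under 1 identifier. They are 18 enzymes that lead from acetyl-CoA to cholesterol (Acat2, Hmgcs1, Mvk, Pmvk, Mvd, Idi1, Fdps, Fdft1, Sqle, Lss, Cyp51, Tm7sf2, Msmo1, Nsdhl, Hsd17b7, Ebp, Sc5d and Dhcr7), 5 genes of the sterol-sensing system (Srebf1, Srebf2, Scap, Insig1 and Insig2) and 3 genes of sterol transport (Npc1, Npc2 and Stard4). All 26 passed the filter on low counts in every comparison.

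The study concerns tumour-derived FGF21 and CD8+ T cells, and it sequenced bulk RNA of sorted tumour-infiltrating T cells and of libraries labelled as tumours, all from mouse MC38 material. MC38 is a mouse colon carcinoma line. Its cells carried a hairpin against Fgf21 (shFgf21, labelled FGF21 knockdown) or a control hairpin (shNC, labelled WT). There were 2 shFgf21 and 3 shNC libraries of sorted T cells, and 3 shFgf21 and 3 shNC libraries of tumours, 11 in all. Mouse strain, sex and age are not given in the labels, and neither are the number of hairpins or clones. For sorted shFgf21 replicate 2 the genotype label reads FGF22, whereas the title has the same sh prefix as its partner, and it was grouped with that library. Titles of the sorted samples string together numbers that may be animals, with nothing said of pooling. The tumour libraries are labelled as tumour tissue, as the MC38 line and as mesenchymal cells. Since no label states that replicates are separate animals, each p-value reflects variation among libraries that could be technical.

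Library totals ran from 14944013 to 19099350 counts. Fgf21 itself had 0 counts in all 5 sorted libraries and in all 3 shFgf21 tumours, against 0, 2 and 1 counts in shNC tumours 1, 2 and 6, so its knockdown could not be checked at this depth. The T cell marker Cd3e was at 32.3 to 67.6 CPM (depth-normalised counts, with TMM scaling over all 11 libraries) in sorted cells and at 0 counts in all 6 tumour libraries. A list of 18 T cell markers took 0.0601% and 0.0717% of counts in shFgf21 sorted cells, against 0.105%, 0.0942% and 0.0550% in shNC sorted cells. The 12 macrophage and monocyte markers took more, 1.65% and 1.75% in shFgf21 sorted cells and 1.12%, 1.28% and 1.35% in shNC sorted cells, and at most 0.00492% in any tumour library. The leukocyte marker Ptprc had 0 to 15 counts in each tumour library, while 8 fibroblast and matrix markers took 0.462% to 0.574% of counts in sorted cells and at least 0.629% in tumours. The names sorted T cells and tumours are thus those of the labels. With so few leukocyte counts, the tumour libraries may not represent whole tumour tissue, and their labels name both tissue and the MC38 line. Since macrophage, monocyte and matrix markers took more counts in sorted libraries than T cell markers, levels in the sorted libraries may not be those of T cells. In such bulk samples, fewer cells of a type and less RNA per cell cannot be told apart.

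Cells make cholesterol from acetyl-CoA through mevalonate, farnesyl diphosphate, squalene and lanosterol. When membranes of the endoplasmic reticulum hold little sterol, SCAP escorts the SREBP transcription factors to the Golgi, where they are cut and released to the nucleus to switch on the enzymes of this route. When sterol is plentiful, INSIG proteins hold SCAP and SREBP back. INSIG1 is itself encoded by an SREBP target gene, and dividing cells, T cells among them, draw on this route for new membrane.

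Promoters were read for 21 of the 26 genes from RefSeq (GRCm38.p6), as 29 windows of 250 bases before to 50 bases after a start site. The motif TCACNCCAC, the core of an SREBP site, was searched on both strands and lay in 1 of the 29 windows, that of Hmgcs1, and in 1.24% of all 32851 windows of the same length. It starts 137 bases before the Hmgcs1 start site. The classical sterol regulatory element, a longer form of this core, was in 0 of the 29 windows and in 0.091% of all windows. CCAAT, the letters of an NF-Y box, was in 20 of the 29 windows, against 37.4% of all windows. GGGCGG, an Sp1 box, was in 24 of the 29 windows, against 35.7% of all windows, and CACGTG, an E-box, in 6 of the 29, against 7.15%. These matches describe the letters only. The promoters of Hmgcs1 (chr13:119690101-119690400, plus strand), Insig1 (chr5:28071162-28071461, plus strand) and Srebf2 (chr15:82147019-82147318, plus strand) are shown 5′ to 3′. Hmgcs1 is shown for its SREBP site core, and Insig1 and Srebf2 because they had small p-values in sorted cells, a choice made after their values were seen. Capitals mark the SREBP site core and CCAAT on either strand, which do not overlap each other.
Hmgcs1: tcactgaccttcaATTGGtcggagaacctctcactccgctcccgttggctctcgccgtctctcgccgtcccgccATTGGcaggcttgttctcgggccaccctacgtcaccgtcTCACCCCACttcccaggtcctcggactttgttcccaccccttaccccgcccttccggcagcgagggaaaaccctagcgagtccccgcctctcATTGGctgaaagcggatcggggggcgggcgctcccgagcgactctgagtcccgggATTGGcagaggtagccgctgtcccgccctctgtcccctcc
Insig1: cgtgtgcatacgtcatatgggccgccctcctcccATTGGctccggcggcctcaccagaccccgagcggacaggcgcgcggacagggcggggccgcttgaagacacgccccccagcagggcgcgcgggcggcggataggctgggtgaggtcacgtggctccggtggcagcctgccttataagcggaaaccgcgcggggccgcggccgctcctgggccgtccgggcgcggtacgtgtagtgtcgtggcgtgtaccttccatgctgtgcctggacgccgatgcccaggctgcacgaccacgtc
Srebf2: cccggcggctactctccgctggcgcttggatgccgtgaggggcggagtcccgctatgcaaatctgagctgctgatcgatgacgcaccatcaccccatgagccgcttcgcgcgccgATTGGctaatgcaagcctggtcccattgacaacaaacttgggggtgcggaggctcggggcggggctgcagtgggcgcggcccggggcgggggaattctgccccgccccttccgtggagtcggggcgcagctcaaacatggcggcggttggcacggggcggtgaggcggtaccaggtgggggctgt

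Between genes, levels were compared as the authors' FPKM, which divide by a gene length that the sources used here do not give. If scaled to library totals, the 123 counts and 0.788 FPKM of Tm7sf2 in shNC sorted replicate 1 imply a length beyond its locus (chr19:6062821-6068373). The ranks below are thus those of the deposited FPKM and may not be those of transcript levels. Npc2, which encodes a soluble lysosomal protein that hands cholesterol on to NPC1, was the highest of the 26 genes in 3 of the 4 groups. It was at 139.9 ± 5.87 FPKM in shFgf21 sorted cells (SD, n = 2), 134 ± 14.1 in shNC sorted cells, 54.6 ± 7.80 in shFgf21 tumours and 60.5 ± 6.99 in shNC tumours (SD, n = 3 each). Insig1 was at 45.4 ± 3.53, 39.1 ± 2.64, 66.2 ± 8.07 and 56.2 ± 14.1 FPKM in these groups in the same order, and in both groups of tumours its spread overlapped that of Npc2. Srebf2 and Cyp51 stood at ranks 3 and 4 in every group. In shFgf21 tumours Srebf2 was at 34.01 ± 0.768 FPKM and Cyp51 at 33.96 ± 3.72 FPKM, and they did not differ beyond their spread. On this scale Tm7sf2, a sterol reductase gene, was the lowest in every group, at 0.845 ± 0.0528, 0.745 ± 0.0561, 0.677 ± 0.121 and 0.664 ± 0.107 FPKM. That rank rests on the length used for it. The median of the 26 genes was 7.68 FPKM in shFgf21 sorted cells and 8.93 FPKM in shFgf21 tumours.

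The comparison of hairpins within the libraries labelled as sorted T cells bears most closely on the series' main question. None of the 26 genes passed an adjusted p of 0.05 between shFgf21 and shNC sorted cells (edgeR quasi-likelihood test with Benjamini-Hochberg adjustment), where 0.079% of 16454 genes passed. Of the 26, 20 were higher in shFgf21, with a median log2 fold change of 0.11, while 48.2% of all genes tested were higher and their median was -0.01. By role, 6 of 9 genes of the mevalonate and squalene steps, 7 of 9 of the lanosterol to cholesterol steps, 4 of 5 of the sterol-sensing genes and 3 of 3 of the transport genes were higher. Without shFgf21 sorted replicate 2, whose genotype label differs, 18 of the 26 were higher. That fit left a single shFgf21 library, so only the direction and size of its differences are given. The 18 enzymes had a median of 0.12, or 0.08 without shFgf21 sorted replicate 2. At an unadjusted p under 0.05 there were 3 of the 26, Srebf2, Npc1 and Insig1, against 11.2% of all genes. The groups did not overlap in 7 of the 26 genes, all higher in shFgf21, against 16.6% of all genes without overlap in that direction, and in 0 of the 26 in the lower direction, against 13.2%.

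Tumour libraries gave the same count between hairpins, 0 of 26 past the threshold (edgeR quasi-likelihood test with Benjamini-Hochberg adjustment), where 0.0334% of 14950 genes passed. Here 21 of the 26 were higher in shFgf21, 16 of 18 enzymes among them and 9 of 9 in the mevalonate and squalene steps, whose median log2 fold change was 0.30. The 18 enzymes had a median of 0.24, against -0.01 for all genes tested. That median was 0.07 without shNC tumour replicate 2, with 13 of 18 enzymes higher and 7 of 9 in the mevalonate and squalene steps. It was 0.37 without shNC tumour replicate 6. No gene of the 26 had an unadjusted p under 0.05, against 6.22% of all genes. Fdps and Hsd17b7 were higher in all shFgf21 tumours than in any shNC tumour (5.86% of all genes), and Srebf1 was lower in all of them (5.90% of all genes). A p that misses the threshold does not show equal levels, and the 95% intervals of the folds are given for single genes in what follows.

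**Figure D1:**
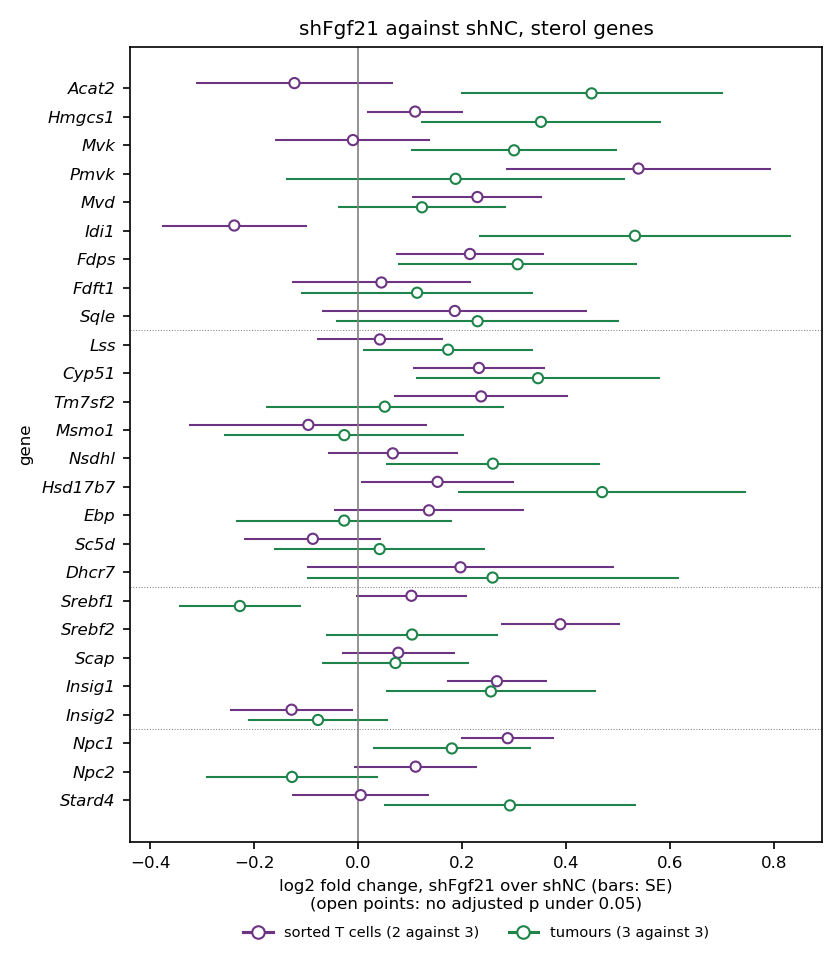
Log2 fold change of shFgf21 over shNC for the 26 genes (rows, in pathway order) in sorted T cells and in tumours, with bars of 1 SE. All points are open because none passed an adjusted p of 0.05. Most points lie right of 0, and Idi1 and Acat2 lie left of 0 in sorted cells and right of it in tumours.

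The difference between these hairpin effects, sorted cells minus tumours, was tested in a fit of all 4 groups. None of the 26 passed (edgeR quasi-likelihood test with Benjamini-Hochberg adjustment), where 0.00577% of 17327 genes did. Srebf1 was at 0.34 ± 0.15 (SE, unadjusted p = 0.0405), Idi1 at -0.76 ± 0.40, Acat2 at -0.56 ± 0.37, Srebf2 at 0.29 ± 0.21, Stard4 at -0.28 ± 0.32 and Hmgcs1 at -0.23 ± 0.29 on the log2 scale, and every adjusted p rounded to 1. Srebf1 was the 1 gene of the 26 with an unadjusted p under 0.05, against 4.77% of all genes. Sqle, Insig1 and Npc1 were at -0.03 ± 0.43, 0.02 ± 0.25 and 0.12 ± 0.18, and each of these changed sign when some single libraries were left out.

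Among the early enzymes, Acat2 makes acetoacetyl-CoA in the cytosol. It was at 32.8 and 46.4 CPM in shFgf21 sorted cells, against 47.4, 45.5 and 34.8 CPM in shNC sorted cells (replicate order here and below). In shFgf21 tumours it was at 74.7, 81.6 and 57.8 CPM, against 46.1, 37.0 and 72.8 CPM in shNC tumours 1, 2 and 6. The groups overlapped in both kinds of sample, with log2 fold changes of -0.12 ± 0.19 and 0.45 ± 0.25 (SE, 95% intervals -0.56 to 0.31 and -0.12 to 1.02).

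Hmgcs1, HMG-CoA synthase, which adds the next acetyl unit, was at 131 and 123 CPM in shFgf21 sorted cells, against 122, 111 and 116 CPM in shNC sorted cells. Both shFgf21 values lay just above the shNC range, with a log2 fold change of 0.11 ± 0.09. In shFgf21 tumours it was at 149, 227 and 177 CPM, against 125, 114 and 191 CPM in shNC tumours, and the groups overlapped (0.35 ± 0.23, interval -0.17 to 0.88). Mvk, Pmvk and Mvd, which phosphorylate and decarboxylate mevalonate, ranged in log2 fold change from -0.01 to 0.54 in sorted cells and from 0.12 to 0.30 in tumours.

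Idi1, the isomerase that gives the cell its pair of interchangeable isoprene units, was at 33.7 and 35.4 CPM in shFgf21 sorted cells, against 44.3, 42.3 and 34.1 CPM in shNC sorted cells. Tumours with shFgf21 had 49.2, 80.0 and 64.1 CPM, against 52.0, 25.5 and 55.4 CPM in shNC tumours. The fold changes were -0.24 ± 0.14 in sorted cells (interval -0.56 to 0.09) and 0.53 ± 0.30 in tumours (-0.15 to 1.21), and shNC tumour 2 was the lowest of all 11 libraries. Fdps, which makes farnesyl diphosphate, was at 126, 121 and 122 CPM in shFgf21 tumours, against 117, 62.8 and 117 CPM in shNC tumours. The 3 shFgf21 values lay above all shNC values, and shNC tumour 2 again stood apart at the low end. Fdft1, squalene synthase, differed by 0.04 ± 0.17 and 0.11 ± 0.22 in sorted cells and tumours.

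Sqle, squalene epoxidase, adds the oxygen that allows the sterol rings to close. It was at 118 and 133 CPM in shFgf21 sorted cells, inside the range of 139, 120.0 and 68.9 CPM in shNC sorted cells. In shFgf21 tumours it was at 207, 156 and 209.6 CPM, against 196, 94.7 and 195 CPM in shNC tumours. Its log2 fold changes were 0.19 ± 0.25 and 0.23 ± 0.27 (intervals -0.41 to 0.78 and -0.39 to 0.85). Each turned negative without 1 low control library, to -0.062 without shNC sorted replicate 3 and to -0.037 without shNC tumour replicate 2.

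Of the later enzymes, Lss closes the rings to lanosterol, Cyp51 removes a methyl group from it and Tm7sf2 reduces the product. Msmo1, Nsdhl and Hsd17b7 take off the remaining methyl groups at carbon atom C4. Ebp moves a ring double bond, Sc5d adds a further double bond and Dhcr7 reduces the last to be removed. Cyp51 was at 112 and 120.1 CPM in shFgf21 sorted cells, against 106, 104 and 82.5 CPM in shNC sorted cells. Its levels in shFgf21 tumours were 158, 192 and 179.6 CPM, against 159, 88.3 and 167 CPM in shNC tumours. The sorted groups did not overlap and the tumour groups did, with log2 fold changes of 0.23 ± 0.13 and 0.35 ± 0.23. The 9 later enzymes ranged from -0.10 to 0.24 in sorted cells and from -0.03 to 0.47 in tumours.

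**Figure D2:**
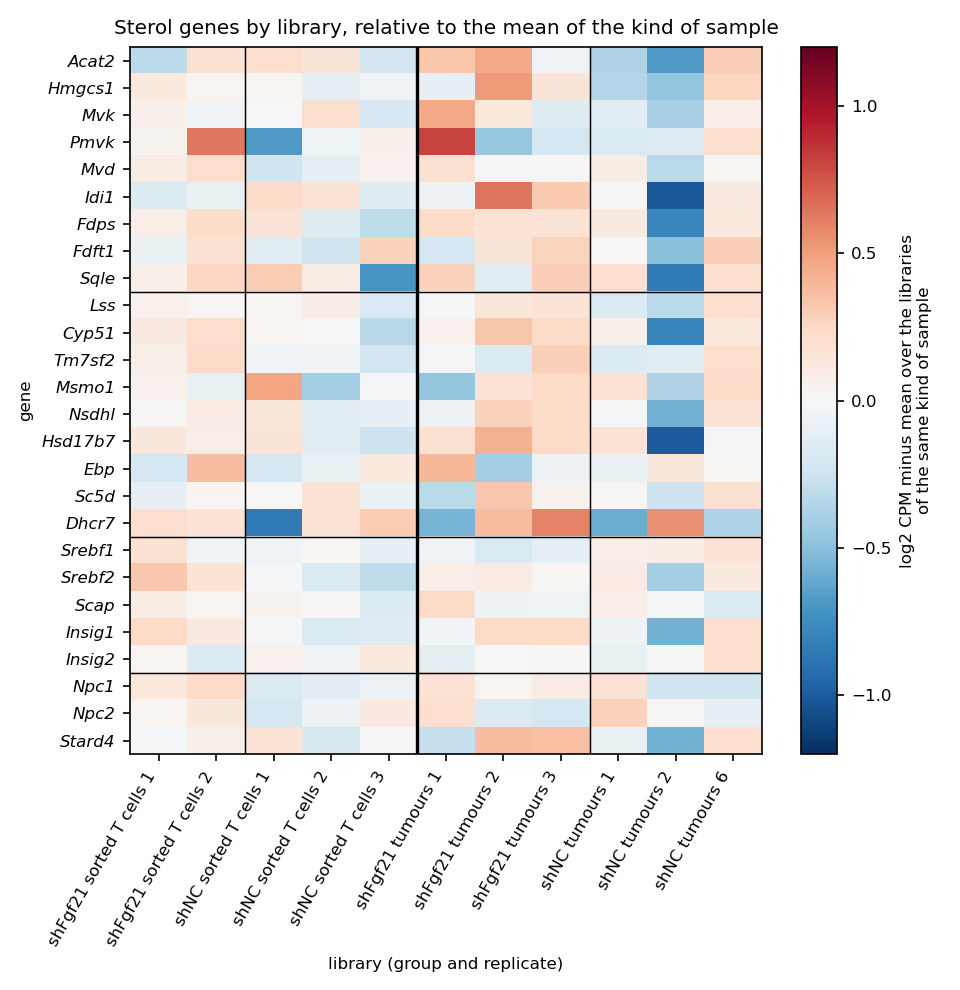
Log2 CPM of each of the 26 genes (rows, with lines between roles) in each of the 11 libraries (columns), minus the gene's mean over the libraries of the same kind of sample. The column of shNC tumour replicate 2 is blue for most enzymes, and Dhcr7 shows 4 libraries well below the other 7.

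The summed level of the 18 enzymes was 893 and 966 CPM in shFgf21 sorted cells and 918, 853 and 779.5 CPM in shNC sorted cells. In tumours it was 1174, 1319 and 1274 CPM with shFgf21 and 1100.2, 756 and 1252 CPM with shNC replicates 1, 2 and 6. Replicate 2 was the lowest of the 3 shNC tumours for 14 of 18 enzymes, where it was the lowest for 34.7% of all genes. Its level was 0.699 times the mean of the other shNC tumours at the median of the enzymes, and 0.471 times for Hsd17b7 at the lowest. Ebp at 1.11 times and Dhcr7 at 2.03 times were the exceptions above 1. Replicate 6 was the highest of the shNC tumours for 13 of 18 enzymes, against 27.9% of all genes. The 10 proliferation markers took 0.195%, 0.249% and 0.231% of counts in shFgf21 tumours and 0.179%, 0.140% and 0.212% in shNC tumours 1, 2 and 6, so the share was lowest in the same library. All 10 of these markers were higher in shFgf21 tumours and 0 passed the threshold (median log2 fold change 0.32). Their part in the enzyme levels was not tested.

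Sorted shNC replicate 3 was the lowest of its group for 10 of 18 enzymes, against 32.6% of all genes. Within its group it also held the lowest shares of T cell and proliferation markers and the highest share of macrophage and monocyte markers. Its T cell marker share was 0.0550%, against 0.0601% and 0.0717% in shFgf21 sorted cells, whose summed enzyme levels were higher. The part of these shares in the enzyme levels was not tested. The coefficient of variation between libraries, at the median of the 18 enzymes, was 6.09% in shFgf21 sorted cells (2 libraries), 13.5% in shNC sorted cells, 16.9% in shFgf21 tumours and 25.8% in shNC tumours.

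**Figure D3:**
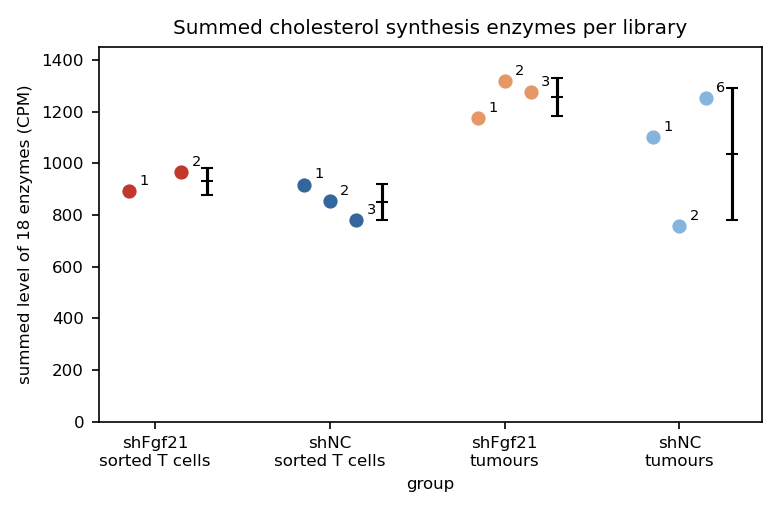
Summed CPM of the 18 cholesterol synthesis enzymes in each library (points, numbered by replicate), with the mean and SD of each group as bars. The shNC tumours spread from 756 to 1252 CPM, and the 3 shFgf21 tumours lie between 1174 and 1319 CPM.

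Srebf2 encodes SREBP-2, the main activator of the cholesterol enzymes. It was at 371 and 332 CPM in shFgf21 sorted cells, against 294, 262 and 239 CPM in shNC sorted cells. Both shFgf21 libraries lay above all 3 shNC libraries, a log2 fold change of 0.39 ± 0.11 (SE, interval 0.12 to 0.65), and the edgeR quasi-likelihood test gave an adjusted p = 0.308. Tumour levels were 388, 392.5 and 369.7 CPM with shFgf21, against 391, 275 and 397 CPM with shNC, and differed by 0.10 ± 0.17, or by -0.046 without shNC tumour replicate 2.

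Srebf1 encodes SREBP-1, which acts more on fatty acid genes. Its levels were 113 and 97.1 CPM in shFgf21 sorted cells, against 96.2, 101 and 91.8 CPM in shNC sorted cells (0.10 ± 0.11, and -0.011 without shFgf21 sorted replicate 1). In tumours it was at 95.1, 85.9 and 91.0 CPM with shFgf21, all below the 103, 104 and 109.7 CPM with shNC. That tumour difference was -0.23 ± 0.12 (interval -0.50 to 0.04), with an adjusted p = 0.841 in the edgeR test, the smallest of the 26 genes there. Scap differed by 0.08 ± 0.11 in sorted cells and by 0.07 ± 0.14 in tumours.

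Insig1 was at 179 and 163 CPM in shFgf21 sorted cells, against 149.8, 135 and 137 CPM in shNC sorted cells. The groups did not overlap (0.27 ± 0.10, interval 0.04 to 0.49), and the edgeR test gave an adjusted p = 0.377. In shFgf21 tumours it was at 193, 233 and 233 CPM, against 189, 133 and 226 CPM in shNC tumours (0.25 ± 0.20, interval -0.20 to 0.71). Insig2, the second INSIG gene, which is not a direct SREBP target in the way Insig1 is, was at -0.13 ± 0.12 in sorted cells and -0.08 ± 0.13 in tumours.

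Npc1 encodes the membrane protein that moves cholesterol out of lysosomes. It was at 165 and 178 CPM in shFgf21 sorted cells, against 134, 139 and 143 CPM in shNC sorted cells, with no overlap. The log2 fold change was 0.29 ± 0.09 (interval 0.08 to 0.49), with an adjusted p = 0.316 in the edgeR test. In shFgf21 tumours it was at 99.0, 89.8 and 93.7 CPM, against 99.1, 74.4 and 74.5 CPM in shNC tumours (0.18 ± 0.15, interval -0.17 to 0.53). Npc2 differed between hairpins by 0.11 ± 0.12 in sorted cells and -0.13 ± 0.16 in tumours. Beside these sorted-cell differences, 11 of 12 macrophage and monocyte markers were higher in shFgf21 sorted cells and 0 passed the threshold (median log2 fold change 0.54), while 4 of 18 T cell markers were higher (median -0.32). Their part in the values of Srebf2, Insig1 and Npc1 was not tested.

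Stard4, a cytosolic carrier of cholesterol between membranes, was at 44.4 and 47.4 CPM in shFgf21 sorted cells, inside the range of 51.1, 39.5 and 44.7 CPM in shNC sorted cells. Its fold change was 0.005 ± 0.132, and its sign changed without shNC sorted replicate 2 or 3 or shFgf21 sorted replicate 2. In shFgf21 tumours it was at 44.0, 69.2 and 68.6 CPM, against 50.1, 36.1 and 61.5 CPM in shNC tumours (0.29 ± 0.24, interval -0.26 to 0.84).

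Of 32 further pathway genes, none passed between hairpins among the 32 tested in sorted cells and the 31 tested in tumours. Over all genes, 0.079% passed in sorted cells and 0.0334% in tumours. The smallest p in sorted cells was that of Scp2, a sterol carrier protein, at 87.2 and 109.3 CPM in shFgf21, against 61.2, 62.4 and 64.2 CPM in shNC (0.63 ± 0.12, edgeR adjusted p = 0.161). The genes with the smallest p in the other lists there were Rnf145, a ubiquitin ligase of the sterol response, at 0.31 ± 0.09, Pggt1b, which encodes a subunit of a prenyl transferase, at -0.37 ± 0.10 and Aacs, acetoacetyl-CoA synthetase, at 0.34 ± 0.13. In tumours these were Acly, ATP citrate lyase, at 0.26 ± 0.13, the SREBP protease gene Mbtps1 at -0.30 ± 0.16, the geranylgeranyl diphosphate synthase gene Ggps1 at -0.32 ± 0.26 and the sterol carrier gene Gramd1a at -0.20 ± 0.13.

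The sorted cells were set against the tumours in 2 separate comparisons that share no library, one for each hairpin. With shFgf21, 12 of the 26 genes passed, 3 higher and 9 lower in sorted cells, where 22.7% of 16229 genes passed as higher and 13.1% as lower (edgeR quasi-likelihood test with Benjamini-Hochberg adjustment). With shNC, 4 of the 26 passed, 3 higher and 1 lower, where 19.1% of 16104 genes passed as higher and 11.9% as lower. The difference between these comparisons is the same contrast as the difference between hairpin effects above, in which none of the 26 passed. The median log2 fold change of the 18 enzymes was -0.46 with shFgf21 (0.01 for all genes) and -0.24 with shNC (-0.02 for all genes).

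Npc2 and Npc1 were the clearest of the 26 between kinds of sample. Npc2 was at 964 and 1045 CPM in shFgf21 sorted cells, against 410.0, 319 and 308 CPM in shFgf21 tumours, a 2.96-fold difference (log2 1.57 ± 0.15, edgeR adjusted p = 9.55e-05). With shNC it was at 823, 911 and 1021 CPM in sorted cells, against 434, 360.3 and 332 CPM in tumours, a 2.45-fold difference (1.29 ± 0.15, edgeR adjusted p = 0.000332). Npc1, with the levels given above, was higher by 0.89 ± 0.12 with shFgf21 (adjusted p = 0.000588) and by 0.75 ± 0.14 with shNC (adjusted p = 0.00440) in the same edgeR tests. In both genes no sorted library overlapped a tumour library. Both passed with each single library left out, apart from fits with a single shFgf21 sorted library, which are not counted. The macrophage and monocyte markers took at least 1.12% of counts in each sorted library and at most 0.00492% in any tumour library, and their part in the Npc1 and Npc2 levels was not tested.

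With shFgf21, 8 of the 18 enzymes passed as lower in sorted cells than in tumours, where 13.1% of all genes did. Idi1 was lower by a log2 fold change of -0.87 ± 0.21, Acat2 by -0.82 ± 0.21, Nsdhl by -0.61 ± 0.16, Cyp51 by -0.58 ± 0.13, Lss by -0.57 ± 0.14, Sqle by -0.57 ± 0.16 and Fdps by -0.46 ± 0.12 (SE, edgeR adjusted p of 0.0107 to 0.0258). Hsd17b7 and Insig2 passed as well, at -0.50 and -0.48. Mvd, mevalonate diphosphate decarboxylase, went the other way, at 39.3 and 42.9 CPM in shFgf21 sorted cells, against 32.3, 28.7 and 28.7 CPM in shFgf21 tumours (0.49 ± 0.15, adjusted p = 0.0322). Lss was at 44.5 and 43.8 CPM in shFgf21 sorted cells, against 61.9, 68.8 and 69.8 CPM in shFgf21 tumours. Nsdhl was at 35.5 and 37.7 CPM, against 49.3, 61.9 and 59.8 CPM in the same groups. Over all 26 genes, the groups did not overlap in 12 that were lower in sorted cells, against 29.6% of all genes, and in 5 that were higher, against 32.2%. The 10 proliferation markers took 0.121% and 0.128% of counts in shFgf21 sorted cells, against 0.195% to 0.249% in shFgf21 tumours. All 10 were lower in sorted cells and 7 passed (median log2 fold change -0.54), and their part in the enzyme levels was not tested. Hmgcs1, Insig1, Stard4, Srebf2 and Srebf1 did not pass, at -0.51 ± 0.18, -0.33 ± 0.14, -0.38 ± 0.22, -0.10 ± 0.12 and 0.24 ± 0.13.

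The number of the 26 that passed with shFgf21 moved when single libraries were left out, and so did the share of all genes that passed. It was 2 without sorted replicate 1 (20.1% of all genes passed), 3 without sorted replicate 2 (17.0%), 19 without tumour replicate 1 (44.1%), 9 without tumour replicate 2 (30.5%) and 5 without tumour replicate 3 (28.4%). Acat2 was lost without sorted replicate 1 and kept its call otherwise. Idi1 and Cyp51 were lost without either sorted library, Lss, Fdps, Nsdhl and Sqle also without tumour replicate 3, and Mvd, Hsd17b7 and Insig2 without any library other than tumour replicate 1.

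With shNC, Ebp, the sterol isomerase, was at 36.2, 39.1 and 45.3 CPM in sorted cells, against 27.7, 32.1 and 29.9 CPM in tumours (0.43 ± 0.13, edgeR adjusted p = 0.0413). Insig2 fell in sorted cells, to 45.3, 42.3 and 47.7 CPM, against 57.0, 59.9 and 69.5 CPM in tumours (-0.46 ± 0.12, edgeR adjusted p = 0.0234). It was lower in both comparisons, with 44.7 and 38.9 CPM in shFgf21 sorted cells, against 55.9, 60.4 and 61.3 CPM in shFgf21 tumours. Sqle, Srebf2, Insig1, Hmgcs1, Idi1, Srebf1 and Stard4 did not pass with shNC, at -0.56 ± 0.33, -0.42 ± 0.17, -0.38 ± 0.19, -0.30 ± 0.19, -0.14 ± 0.28, -0.13 ± 0.10 and -0.12 ± 0.20. Without shNC tumour replicate 2, which had the low enzyme levels, 10 of the 26 passed, where 32.4% of all genes did. Fdps, Lss, Cyp51, Nsdhl, Srebf2, Insig1 and Insig2 were then lower, and Ebp, Npc1 and Npc2 higher. The count was 2 without sorted replicate 2, sorted replicate 3 or tumour replicate 6, where 20.8%, 21.7% and 24.7% of all genes passed. The groups did not overlap in 4 of the 26 genes in the higher direction, against 25.4% of all genes, and in 3 in the lower, against 21.7%. Ebp kept its call only without shNC tumour replicate 2, and Insig2 only without shNC tumour replicate 1 or 2. Idi1 turned to values above 0 without tumour replicate 1 or 6, and Stard4 without tumour replicate 6.

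**Figure D4:**
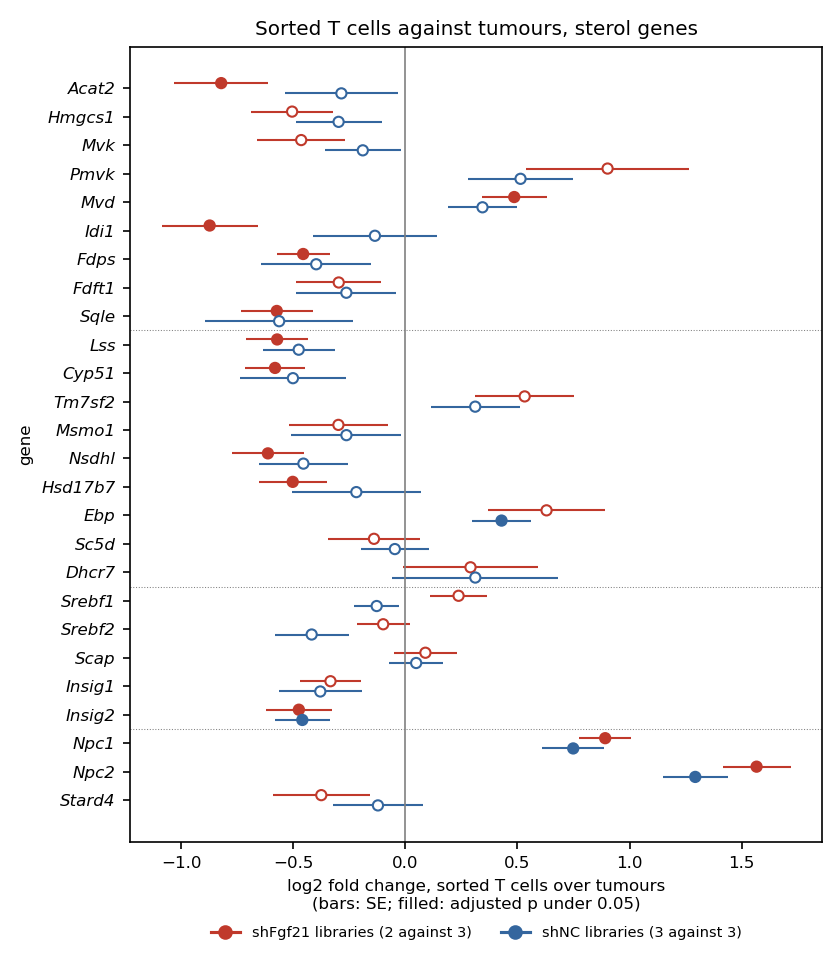
Log2 fold change of sorted T cells over tumours for the 26 genes (rows), separately for shFgf21 and shNC libraries, with bars of 1 SE. Filled points passed an adjusted p of 0.05, 12 with shFgf21 and 4 with shNC. Npc1 and Npc2 lie far right of 0 and most enzymes left of it.

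Among the 7 further genes of intracellular sterol carriers, Gramd1a and Gramd1b, which carry cholesterol from the plasma membrane to the endoplasmic reticulum, Stard3, a late endosome cholesterol carrier, and Scp2 passed as higher in sorted cells in both comparisons, where 22.7% of all genes did with shFgf21 and 19.1% with shNC. Gramd1c, of the same family, had 12 and 10 counts in shFgf21 sorted cells, against 0, 0 and 3 in shFgf21 tumours, and 28, 17 and 22 counts in shNC sorted cells, against 3, 0 and 0 in shNC tumours. It passed the filter on low counts through the sorted cells alone, so its call is not counted. Gramd1b was at 48.7 and 83.4 CPM in shFgf21 sorted cells, against 19.0, 10.6 and 10.9 CPM in shFgf21 tumours (log2 2.32 ± 0.31, edgeR adjusted p = 0.000678). With shNC its log2 fold change was 2.29 ± 0.33 (edgeR adjusted p = 0.00131). Scp2 was higher by 1.31 ± 0.17 with shFgf21 and by 0.70 ± 0.13 with shNC, and Stard3 by 1.12 ± 0.15 and 0.80 ± 0.21. Rnf145 was also higher in both comparisons, at 0.73 ± 0.15 with shFgf21 and 0.47 ± 0.12 with shNC. Mbtps2 and Pgrmc1 passed as lower and Nus1 as higher with shFgf21, and Mbtps1 and Fntb were among those that passed as lower with shNC. Of the 4 genes of cytosolic acetyl-CoA supply none passed. As lower in sorted cells, 13.1% of all genes passed with shFgf21 and 11.9% with shNC.

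Counting may mix some of these genes with neighbours, since 13 of the 26 overlap another listed gene and the strand of counting is not given in the sources used here. For 5 of them the overlapping gene had at least 5% of the member's counts over all libraries. Akap9 had 65.1% of the counts of Cyp51, Rmc1 37.7% of those of Npc1 and Rai1 22.4% of those of Srebf1. Ctsb had 4194% of the counts of Fdft1 and Vps51 729% of those of Tm7sf2, which they overlap. The values of these 5 genes are thus uncertain. The overlap is of whole loci, not of exons, so these shares do not measure how far the values are affected, which was not tested.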

How the data were processed

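Per the file headers, the deposited table holds read counts (whole numbers) and FPKM for each gene in 11 libraries. The submitters' processing notes name mm10 as the genome build. Which aligner, counting program, annotation and strand setting were used is not given in the sources consulted. No column of per-sample values was left out.

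The counts as deposited were analysed in R 4.3.3 with edgeR 4.0.16. Groups came from the sample titles. Genes were kept by filterByExpr within the libraries of each comparison, libraries were scaled by TMM, and groups were compared by the two-sided quasi-likelihood F-test over all genes, with Benjamini-Hochberg adjustment and a threshold of 0.05. The SE of a log2 fold change is its size divided by the square root of F, and 95% intervals use the t distribution with the fit's degrees of freedom. CPM values use TMM factors over all 11 libraries. Deposited FPKM, whose gene lengths are not given, served to compare levels between genes and as an alternative for summed levels.

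The members, the lists of other genes and the markers were chosen with earlier results of these data known. All members are named. Values are given for Sqle, Hmgcs1, Idi1, Insig1, Srebf2, Srebf1, Npc1 and Stard4, for the 3 members with the smallest p in each comparison and for those past the threshold, at most 6 per direction. Values of other members that are printed were chosen after they were seen. A result on 1 gene of the other lists is not reported here.

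The alternatives changed the scaling (median-ratio size factors), the filter (none, or a mean count of at least 5 CPM), the test (Wald test of DESeq2 1.42.0, or voom with quality weights in limma 3.58.1) or the libraries fitted (all 4 groups together, or each library left out in turn). They also took the number in the tumour titles as a block, and the deposited FPKM in place of CPM for summed levels. No setting for FPKM on a log scale was needed, as the tests ran on counts. The tests were run first on simulated data. A count of 0 allows up to 3 counts, or 0.157 to 0.201 CPM per library, for counting error only.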

Additional observations from a re-analysis of the deposited data

How the results depend on the processing

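The counts of the 26 genes past the threshold between hairpins, in sorted T cells, in tumours and for the difference of the effects, were 0 under every alternative counted, DESeq2 and voom included. Fits with a single shFgf21 sorted library are not counted here or below. Counts over all genes moved more. In sorted cells they were 1 without a filter, 232 with DESeq2 and 1 in the fit of 4 groups, against 13, with a range of 18 to 34 when single shNC libraries were left out. In tumours they were 1 with the filter at 5 CPM, 115 with DESeq2, 21 with voom and 26 in the fit of 4 groups, against 5, with a range of 0 to 8 when single libraries were left out. For the difference of the effects they were 4 without a filter, 0 with the filter at 5 CPM, 32 with DESeq2 and 3 with voom, against 1. Their range was 1 to 4 when single libraries other than shFgf21 sorted ones were left out.

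The tumour titles share the numbers 1 and 2 between hairpins. Deviations from the group means correlated at 0.154 for number 1 and -0.185 for number 2, so the numbers were not taken as pairing. With the number as a replicate block, only the libraries numbered 1 and 2 inform the contrast, as each other number occurs with a single hairpin. In that fit, which is not a comparison of all the tumours, 131 genes passed and 0 of the 26.

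Sorted cells against tumours with shNC gave 2 of the 26 genes without a filter and 9 with voom, against 4, and 2 to 10 when single libraries were left out. With shFgf21 the range was 2 to 19, against 12, and over all genes 2868 to 7052, against 5808. The log2 ratio of summed enzyme levels there was -0.54 on deposited FPKM, against -0.43 on CPM.

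Some fold changes near 0 changed sign. Stard4 in sorted cells was at -0.012 with the filter at 5 CPM and at -0.081 to 0.10 when single libraries were left out. Ranges of the same kind between hairpins in sorted cells were -0.062 to 0.39 for Sqle and -0.011 to 0.21 for Srebf1, and in tumours -0.037 to 0.40 for Sqle and -0.046 to 0.20 for Srebf2. For the difference of the effects they were -0.28 to 0.24 for Sqle, which was at 0.056 with voom, -0.16 to 0.21 for Insig1 and -0.029 to 0.19 for Npc1. For sorted cells against tumours with shNC they were -0.41 to 0.056 for Idi1 and -0.30 to 0.067 for Stard4. The cause of these changes was not tested. With 2 or 3 libraries a group, differences the size of the printed intervals could not be resolved.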

Other observations

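Dhcr7, which encodes the last reductase of cholesterol synthesis, split the libraries in a way that followed neither hairpin nor kind of sample. It was at 15.6 CPM in shFgf21 tumour replicate 1, and at 15.7, 15.2 and 17.8 CPM in shNC sorted replicate 1 and shNC tumour replicates 1 and 6. The other 7 libraries lay between 29.5 and 34.9 CPM, a gap of 1.66-fold between the sets. Of 11757 genes with a mean of at least 5 CPM, 13 had the same 4 libraries lowest, and the next largest gap among them was 1.19-fold, for H2az1. This split was noticed in the data and was not tested.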
